A study of Mus musculus with 2 samples.

Results

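The genes of the mitochondrial ribosome were examined in pericardial adipose tissue (PAT), the fat around the heart, of P2Y4 KO and WT mice after an experimental myocardial infarction. Members were the genes whose name in the deposited table is Mrpl or Mrps followed by a number and, for some, the letter a, b or c. There were 78 of them among 23609 listed genes, 49 named Mrpl for the large subunit and 29 named Mrps for the small subunit. The first library held RNA pooled from PAT of 3 P2Y4 KO mice, which lack the P2Y4 nucleotide receptor, and the second RNA pooled from PAT of 3 WT mice. The study's methods give C57BL/6J for the P2Y4 KO mice and do not name the strain of the WT mice. They state that mice of both sexes, aged 11 to 13 weeks, were used, but not the sexes in each pool. PAT was taken 24 h after the left anterior descending (LAD) coronary artery had been tied off for good. The question was how PAT of the 2 genotypes differs in gene expression after ischemia. With 1 pooled library per genotype there are no replicates, so differences between mice cannot be seen, no SD or p-value across samples is given, and a difference between the libraries cannot be told apart from a difference between 2 pools of the same genotype. P2ry4 was not analysed here, which leaves the genotype labels without a check by the deleted gene.

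The mitochondrial ribosome translates the few mRNAs of the mitochondrial genome, which encode core subunits of the respiratory chain and of ATP synthase. Its ribosomal RNAs come from the mitochondrial genome, while all of its proteins are encoded in the nucleus, made by cytosolic ribosomes and imported. Some of these proteins descend from bacterial ribosomal proteins and others were added in the mitochondrial lineage. In adipose tissue, brown and beige adipocytes hold many more mitochondria than white adipocytes do.

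Levels are in CPM, the reads of a gene for every 1000000 reads of its library. A ratio is the P2Y4 KO over the WT value, and each ratio comes with an exact 95% interval of the underlying reads. The interval covers counting error only, since PCR copies were not told apart and the libraries were not replicated. The P2Y4 KO library held about 14885825 and the WT library about 15508820 reads on genes. In total, 18474 genes passed a minimum of 0.5 CPM in at least 1 library, all 78 mitochondrial ribosomal protein genes among them. A general adipocyte marker was present, with Adipoq, which encodes adiponectin, at 333.30 CPM in P2Y4 KO and 123.90 CPM in WT PAT.

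The 78 genes together took 4141 CPM in P2Y4 KO PAT and 3979 CPM in WT PAT, a ratio of 1.04 (95% interval 1.03 to 1.05). The 49 Mrpl genes summed to 2844 CPM in P2Y4 KO and 2764 CPM in WT PAT, a ratio of 1.03 (1.01 to 1.04). The 29 Mrps genes summed to 1297 CPM in P2Y4 KO and 1215 CPM in WT PAT, a ratio of 1.07 (1.05 to 1.09). The summed level of the mitochondrial ribosomal protein genes was thus less than 10% from equality for both subunits.

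No member had a ratio of at least 2, against 8.75% of all genes past the filter, and none had a ratio of at most 0.5, against 4.4% of all genes. Low genes weigh on these shares. Among the 12153 genes above 5 CPM in both libraries, which include all 78 members, the shares were 2.89% and 1.58%. Ratios ran from 0.825 for Mrpl35 to 1.54 for Mrpl34. They lay between 0.8 and 1.25 for 66 of the 78 genes, a share of 84.6%, against 54.9% of all genes past the filter and 68.3% of genes above 5 CPM. The other 12 were all at 1.25 or more, a share of 15.4%, against 25.8% of all genes past the filter and 17.0% of genes above 5 CPM. These 12 were 5 of the 49 Mrpl and 7 of the 29 Mrps genes.

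A ratio above 1 was found for 47 of the 78 genes, or 60.3%, against 49.5% of all genes and 46.3% of genes above 5 CPM, and a ratio below 1 for 30, against 53.4% of genes above 5 CPM. The whole interval lay above 1 for 25 members, 14 Mrpl and 11 Mrps, against 25.2% of all genes, and below 1 for 10 members, 6 Mrpl and 4 Mrps, against 23.5% of all genes. Among genes above 5 CPM these shares were 27.0% and 30.5%. For the remaining 43 the interval included 1, and no difference could be detected at this depth. The median log2 ratio was 0.05 over the members, 0.04 for Mrpl and 0.07 for Mrps genes, beside 0.00 over all genes past the filter. These signs hold for values scaled to library totals, and with the nuclear respiratory chain genes as the scale the median over members was -0.33. The SD of the log2 ratio among members was 0.19, against 0.75 among all genes and 0.44 among genes above 5 CPM, and counting error alone gives an SD of 0.08 at their depth. The ratios of the members were thus spread more widely than counting error alone gives. How much of that spread lies between the genotypes and how much between any 2 pools was not tested.

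**Figure D1:**
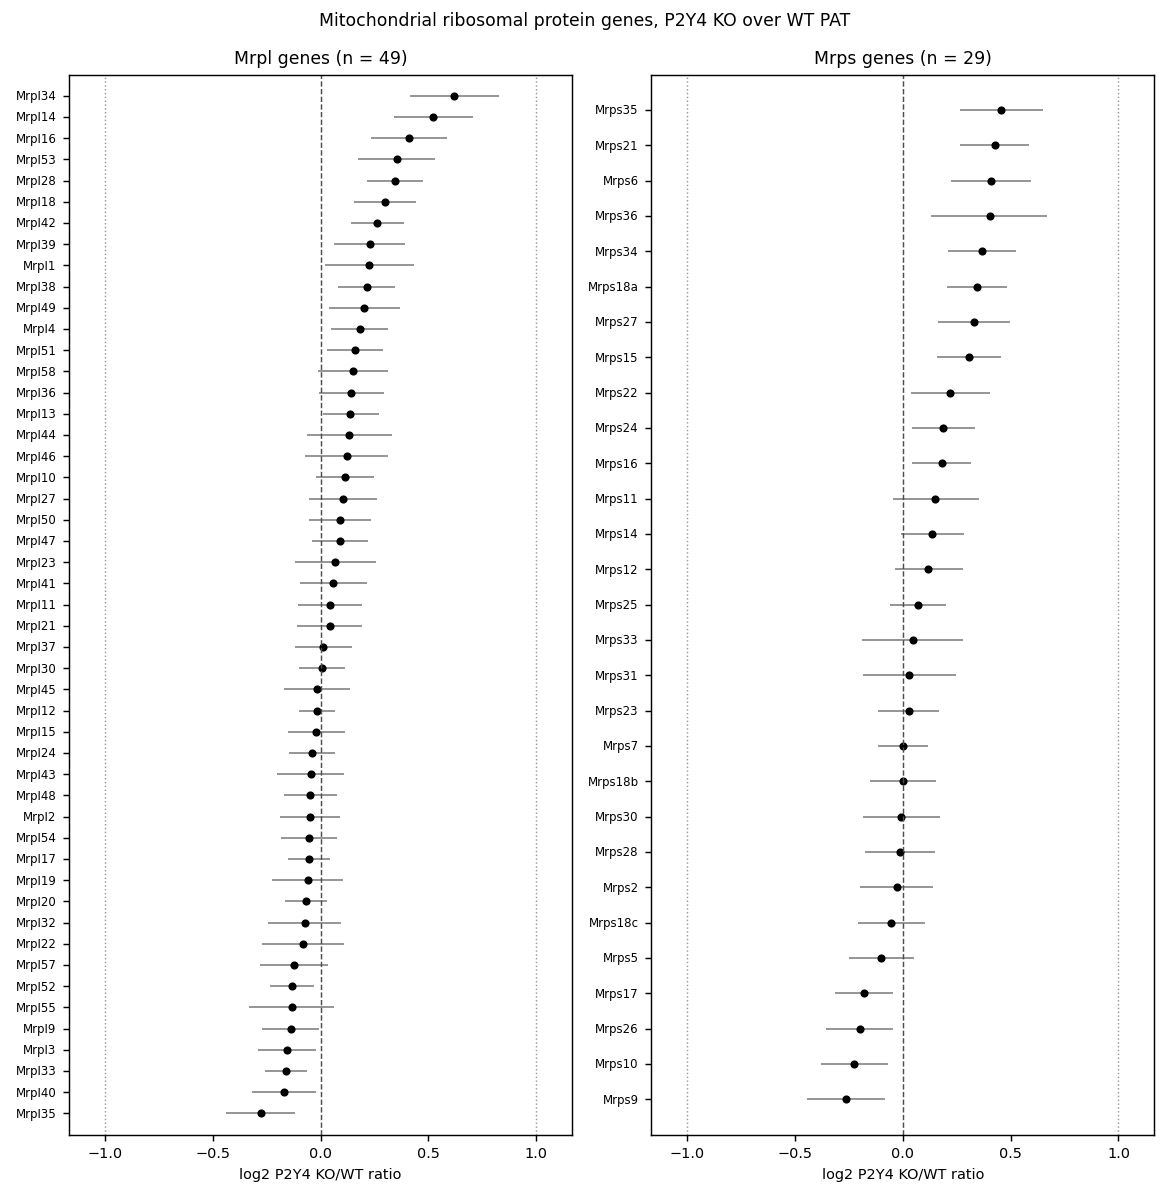
P2Y4 KO/WT ratio on a log2 scale (horizontal axis) of each of the 49 Mrpl genes and 29 Mrps genes, ordered by ratio. Points are ratios and bars are exact 95% intervals of the reads, which cover counting error only. Ratios run from 0.825 for Mrpl35 to 1.54 for Mrpl34, and no gene reaches 2 or 0.5.

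In the large subunit, the gene with the highest ratio was Mrpl34, a small protein with a bacterial counterpart. It had 32.45 CPM (483 reads) in P2Y4 KO and 21.10 CPM (327 reads) in WT PAT, a ratio of 1.54 (1.33 to 1.78). Mrpl14, which lies at the interface between the subunits, had 39.10 CPM in P2Y4 KO and 27.25 CPM in WT PAT, a ratio of 1.43 (1.27 to 1.63). These were the only Mrpl genes whose ratio passed 1.4. Mrpl16, close to the site where peptide bonds are made, had 41.20 CPM in P2Y4 KO and 31.05 CPM in WT PAT, a ratio of 1.33 (1.18 to 1.5). Mrpl53, a protein with no bacterial counterpart, had 38.40 CPM in P2Y4 KO and 30.05 CPM in WT PAT, a ratio of 1.28 (1.13 to 1.45). Mrpl28, again of bacterial type, had 70.30 CPM in P2Y4 KO and 55.35 CPM in WT PAT, a ratio of 1.27 (1.16 to 1.39).

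Among the Mrpl genes with ratios below 1, Mrpl35 had 37.80 CPM (562 reads) in P2Y4 KO and 45.80 CPM (710 reads) in WT PAT, a ratio of 0.825 (0.737 to 0.922). Mrpl40, part of the central protuberance, had 46.90 CPM in P2Y4 KO and 52.75 CPM in WT PAT, a ratio of 0.889 (0.802 to 0.985). Mrpl33 had 106.30 CPM in P2Y4 KO and 118.65 CPM in WT PAT, a ratio of 0.896 (0.837 to 0.959). Mrpl33, Mrpl34 and Mrpl35 were grouped here as short proteins of bacterial type. That group was drawn up after the values had been seen, so its holding the highest and the lowest Mrpl ratio is no finding about such proteins. Mrpl3, which reaches towards the peptidyl transferase centre, had 56.80 CPM in P2Y4 KO and 63.20 CPM in WT PAT, a ratio of 0.899 (0.818 to 0.986). Mrpl52, a mitochondria-specific protein, had 100 CPM in P2Y4 KO and 109.70 CPM in WT PAT, a ratio of 0.912 (0.850 to 0.978). The lower ratios of the large subunit therefore stayed closer to 1 than the higher ones. Mrpl1, the protein of the L1 stalk, had the fewest reads of its subunit, with 27.85 CPM (414 reads) in P2Y4 KO and 23.80 CPM (369 reads) in WT PAT, a ratio of 1.17 (1.01 to 1.35).

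In the small subunit, the highest ratio was that of Mrps35, a mitochondria-specific protein, with 34.90 CPM (519 reads) in P2Y4 KO and 25.45 CPM (394 reads) in WT PAT, a ratio of 1.37 (1.20 to 1.57). Mrps21, of bacterial type, had 50.50 CPM in P2Y4 KO and 37.60 CPM in WT PAT, a ratio of 1.34 (1.20 to 1.5). Mrps6, on the platform of the subunit, had 36.65 CPM in P2Y4 KO and 27.60 CPM in WT PAT, a ratio of 1.33 (1.17 to 1.51). These ratios are lower than those of Mrpl34 and Mrpl14 and close to that of Mrpl16. Mrps34, which is needed for a stable small subunit, had 49.60 CPM in P2Y4 KO and 38.50 CPM in WT PAT, a ratio of 1.29 (1.15 to 1.44). The exons of 8 members, namely Mrps6, Mrps34, Mrpl53, Mrps24, Mrpl51, Mrps18c, Mrpl3 and Mrpl33, overlap exons of other genes on the same strand, so their values, higher and lower, are less certain than those of Mrps35, Mrps21 or Mrpl34, whose exons overlap none. Overlap with exons on the opposite strand was found for 28 members, Mrpl14 among them. The strand setting of the read counting was not given, so the values of these members may be less certain too.

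The lowest ratio among Mrps genes was that of Mrps9, a protein of its head, with 30.45 CPM (453 reads) in P2Y4 KO and 36.60 CPM (567 reads) in WT PAT, a ratio of 0.832 (0.734 to 0.943). Mrps10, also in the head, had 41.90 CPM in P2Y4 KO and 48.95 CPM in WT PAT, a ratio of 0.856 (0.768 to 0.952). Mrps26, a mitochondria-specific protein, had 42.15 CPM in P2Y4 KO and 48.40 CPM in WT PAT, a ratio of 0.871 (0.782 to 0.970). These 3 intervals lie wholly below 1. Mrps17, in the body of the subunit, had 56.80 CPM in P2Y4 KO and 64.40 CPM in WT PAT, a ratio of 0.882 (0.804 to 0.968). Mrps5, at the path of the mRNA, had 46.30 CPM in P2Y4 KO and 49.60 CPM in WT PAT, a ratio of 0.933 (0.841 to 1.04), so that its interval includes 1. Of the members with a whole interval above 1 and not described singly, Mrps27, Mrps15, Mrpl18, Mrpl42, Mrpl39, Mrps22, Mrpl38, Mrpl49, Mrps24, Mrpl4, Mrps16, Mrpl51 and Mrpl13, ratios ran from 1.1 for Mrpl13 to 1.26 for Mrps27. The 1 such member with a whole interval below 1 was Mrpl9, with 59.30 CPM in P2Y4 KO and 65.30 CPM in WT PAT, a ratio of 0.908 (0.829 to 0.995).

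**Figure D2:**
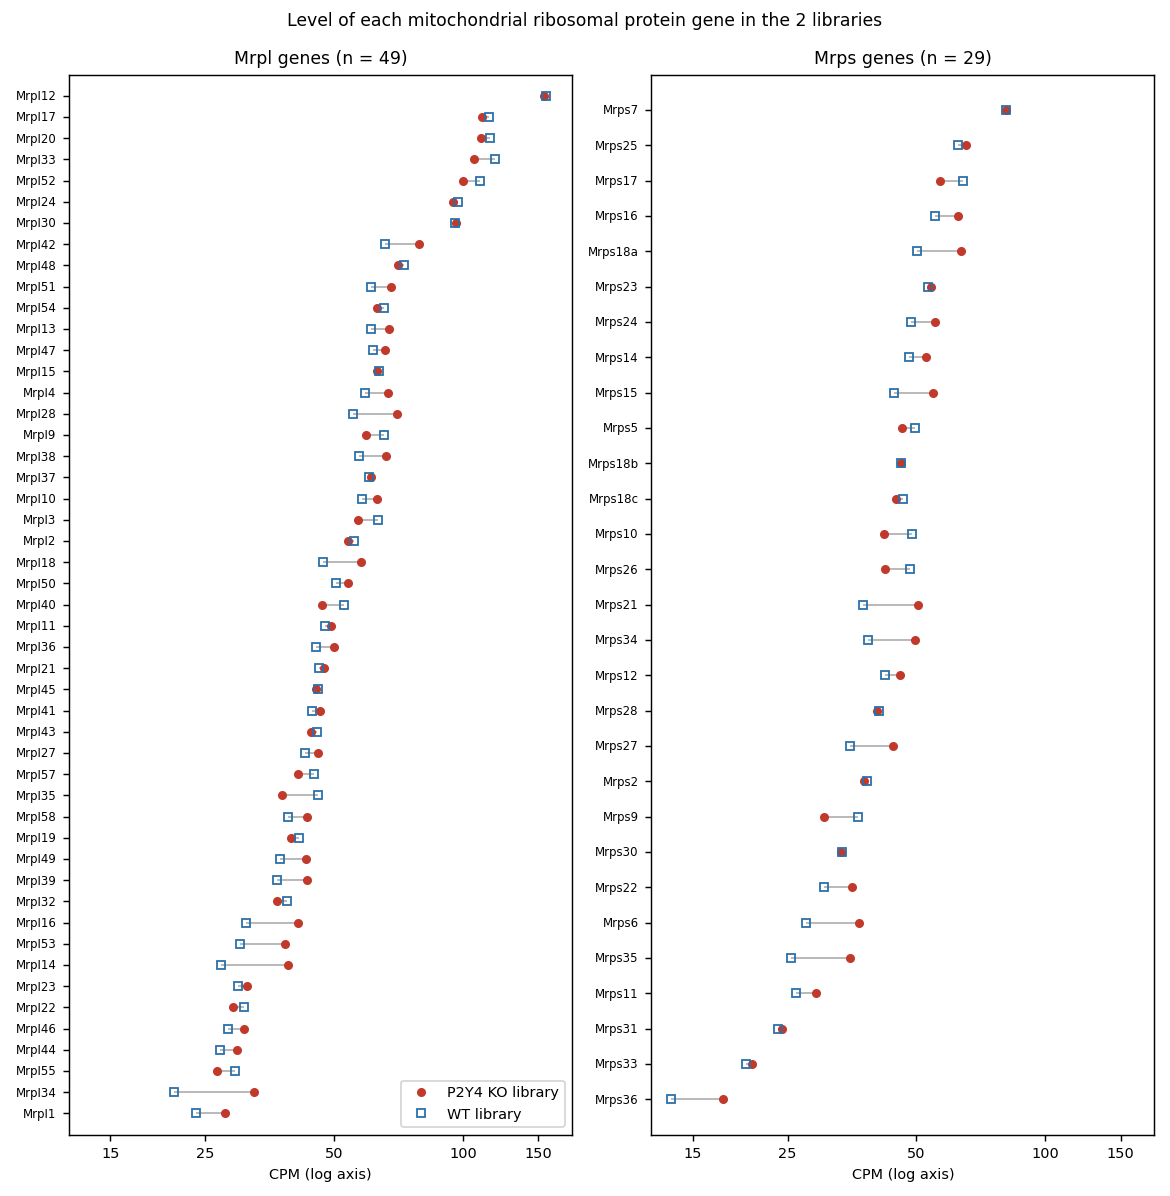
CPM (log axis) of each of the 78 genes in the P2Y4 KO library (filled circles) and the WT library (open squares), Mrpl genes on the left and Mrps genes on the right, ordered by mean level. The symbols of a gene lie close together over most of the range, and the widest gaps, such as those of Mrpl34, Mrpl14 and Mrps35, belong to genes below 50 CPM.

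A few names do not match the place of the protein. The Mrps18 genes are 3 paralogs of 1 bacterial protein, of which Mrps18c takes the ancestral place and Mrps18a sits in the large subunit. Mrps18a had 63.60 CPM (946 reads) in P2Y4 KO and 50.05 CPM (776 reads) in WT PAT, a ratio of 1.27 (1.15 to 1.40). Mrps18b had 46.05 CPM in P2Y4 KO and 46.05 CPM in WT PAT, a ratio of 1.0 (0.899 to 1.11). Mrps18c had 44.75 CPM in P2Y4 KO and 46.45 CPM in WT PAT, a ratio of 0.963 (0.866 to 1.07). Of the paralogs, Mrps18a alone had an interval above 1, and it does not overlap the interval of either of the other two.

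Mrps30, also a protein of the large subunit despite its name, had 33.40 CPM in P2Y4 KO and 33.55 CPM in WT PAT, a ratio of 0.996 (0.879 to 1.13). Mrps36 is a component of the oxoglutarate dehydrogenase complex of the citric acid cycle and not of the ribosome. It had the fewest reads of all members, with 17.65 CPM (262 reads) in P2Y4 KO and 13.35 CPM (207 reads) in WT PAT, a ratio of 1.32 (1.09 to 1.59). With genes placed by structure, the 51 large subunit genes had a median log2 ratio of 0.04 and the 26 small subunit genes one of 0.06. Among the 45 members whose exons overlap no other gene, a set chosen after seeing the data, the medians were 0.01 for Mrpl and 0.08 for Mrps genes.

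Grouped by structural role, in groups drawn up after the values had been seen, the proteins of the tunnel exit varied least. These were Mrpl17, Mrpl22, Mrpl23, Mrpl24, Mrpl45 and Mrpl47, and their ratios ran from 0.946 to 1.06, with no interval off 1. The 4 genes of the L1 stalk and the factor-binding stalk (Mrpl1, Mrpl10, Mrpl11, Mrpl12) had ratios from 0.989 to 1.17. The 5 genes grouped as short proteins of bacterial type (Mrpl32, Mrpl33, Mrpl34, Mrpl35, Mrpl36) ran from 0.825 to 1.54. The group had an SD of the log2 ratio of 0.35, against 0.07 at the tunnel exit.

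In the small subunit, the 7 genes grouped here as body and platform (Mrps6, Mrps11, Mrps15, Mrps16, Mrps17, Mrps18c, Mrps21) summed to 334.95 CPM in P2Y4 KO and 301.60 CPM in WT PAT, a ratio of 1.11 (1.07 to 1.16). The 5 genes grouped here as head (Mrps7, Mrps9, Mrps10, Mrps14, Mrps24) summed to 261.15 CPM in P2Y4 KO and 262.75 CPM in WT PAT, a ratio of 0.994 (0.951 to 1.04). These groups are partial, since 40 members were placed in no role group, Mrps35 among them. The sums therefore need not hold for all proteins of the head or of the body and platform. Proteins of bacterial descent (46 genes) had a median log2 ratio of 0.02, and those added in the mitochondrial lineage (29 genes) one of 0.07.

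Levels were compared between genes per kb of exon, using the exon lengths of GENCODE M21 on GRCm38. The median level was 21.6 CPM per kb in P2Y4 KO and 17.9 CPM per kb in WT PAT. Levels spanned 25-fold in P2Y4 KO, with 4.04 to 101 CPM per kb, and 34.7-fold in WT PAT, with 2.95 to 102 CPM per kb. The lowest was Mrps35 and the highest Mrpl12 in both libraries. Mrpl12, the stalk protein that recruits translation factors, had 154.85 CPM (2305 reads) in P2Y4 KO and 156.65 CPM (2429 reads) in WT PAT, a ratio of 0.989 (0.933 to 1.05). It is thus the most abundant of these transcripts per kb and at equal level in the libraries within counting error.

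Mrpl52 followed with 90.2 CPM per kb in P2Y4 KO and 98.9 CPM per kb in WT PAT, then Mrpl54, a protein with no bacterial counterpart, with 76.4 CPM per kb in P2Y4 KO and 79.2 CPM per kb in WT PAT. Among Mrps genes the order of the means was Mrps21, with 68.3 CPM per kb in P2Y4 KO and 50.9 CPM per kb in WT PAT, then Mrps28, with 51.6 CPM per kb in P2Y4 KO and 52.1 CPM per kb in WT PAT, then Mrps18c, with 41.6 CPM per kb in P2Y4 KO and 43.2 CPM per kb in WT PAT. This order depends on the length used. With the median length of protein-coding transcripts in place of all exons, Mrpl52 came first and Mrpl12 took rank 6. The ordering of members was shared by the libraries, with a Pearson r of 0.98 between log2 CPM per kb in P2Y4 KO and in WT PAT over the 78 genes, a value to which their common exon lengths contribute. Across members, the log2 ratio had an r of -0.33 with log2 exon length, against -0.01 over 18428 genes, and of -0.32 with the log2 summed CPM, which contains the values of the ratio itself.

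The members are protein-coding genes on 17 chromosomes, with at most 11 on 1 chromosome, so they form no cluster. Many share a start region with another gene. In GENCODE M21, 33 of the 78 members (42.3%) have a protein-coding gene on the opposite strand that starts within 1000 bp and runs away from them, against 14.9% of the 14550 protein-coding genes past the filter. Mrpl36 starts 29 bp from Ndufs6, a subunit of complex I. Mrps12, a protein of the decoding site, starts 172 bp from Sars2, the mitochondrial seryl-tRNA synthetase. Mrps11 and Mrpl46 start 412 bp from each other, with ratios of 1.11 (0.968 to 1.28) for Mrps11 and 1.09 (0.951 to 1.24) for Mrpl46.

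In 32 of these members the neighbour passed the filter, and the log2 ratios of members and neighbours had a Pearson r of -0.04 and a Spearman rho of 0.06 over the 32 pairs. The pair Mrps11 and Mrpl46 enters this in both orders. The neighbours covered a wider range than the members. Wdfy1, which starts 125 bp from Mrpl44, had 15.05 CPM in P2Y4 KO and 58.25 CPM in WT PAT, a ratio of 0.258 (0.222 to 0.299). Mrpl44 itself had 29.60 CPM in P2Y4 KO and 27.00 CPM in WT PAT, a ratio of 1.10 (0.957 to 1.26). Ncapd2, a condensin subunit that starts 100 bp from Mrpl51, had 24.30 CPM in P2Y4 KO and 13.55 CPM in WT PAT, a ratio of 1.79 (1.51 to 2.13), and Mrpl51 had a ratio of 1.12 (1.02 to 1.22). The mitochondrial ribosomal protein gene of each of these pairs thus lay near 1 while its neighbour did not. These pairs were picked after their values had been seen.

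**Figure D3:**
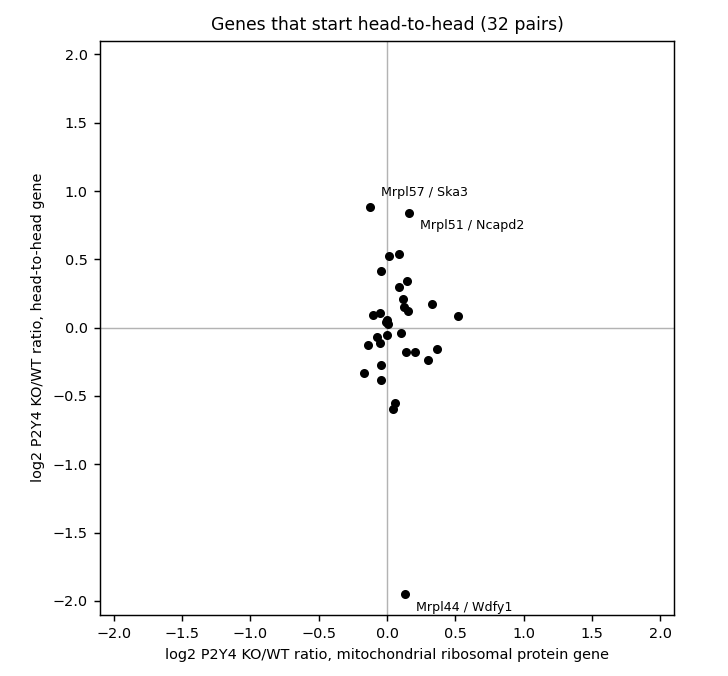
Log2 P2Y4 KO/WT ratio of the member (horizontal axis) and of its neighbour that starts head-to-head within 1000 bp (vertical axis, same scale), 1 point for each of 32 pairs. Members stay close to 0 while neighbours range from the ratio of 0.258 of Wdfy1 to that of 1.85 of Ska3.

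Promoter sequences were taken from RefSeq on GRCm38.p6, in windows of 250 bases before to 50 after each start site, and 69 of the 78 members had a window, all but Mrpl4, Mrpl13, Mrpl15, Mrpl19, Mrpl38, Mrpl54, Mrps28, Mrps34 and Mrps35. Motifs were searched on both strands. The 7 letters CCGGAAG, the core bound by ETS factors such as the GABP complex, occurred in 26 of the 69 members (37.7%), in 17.7% of the 11942 genes past the filter with a window and in 9.93% of all 27025 genes with a window. The 10-base site of the nuclear respiratory factor NRF1, with 1 base left open, occurred in 13 members (18.8%), 10.1% of genes past the filter and 5.19% of all genes. AAGATGGCG, the letters around a YY1 site, occurred in 8 members (11.6%), 3.07% of genes past the filter and 1.64% of all genes. At least 1 of these 3 was present in 41 members (59.4%), in 27.5% of genes past the filter and in 15.1% of all genes. GGGCGG, an SP1 site, was found in 49.3% of members and 64.0% of genes past the filter, and TATAAA in 7.25% of members and 9.52% of genes past the filter.

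The 41 members with an NRF1, ETS or YY1 match had a median log2 ratio of 0.04, against 0.06 for the 28 without one. The single motifs differed in direction. The median was -0.02 with and 0.07 without an NRF1 match, 0.04 with and 0.06 without an ETS match, and 0.17 with and 0.04 without a YY1 match. The YY1 value rests on 8 members and the NRF1 value on 13, and none of these differences was tested. The mRNAs of the factors themselves had ratios near 1. Nrf1 had 29.85 CPM in P2Y4 KO and 33.75 CPM in WT PAT, Gabpa 70.90 CPM in P2Y4 KO and 69.55 CPM in WT PAT, and Yy1 79.95 CPM in P2Y4 KO and 74.75 CPM in WT PAT.

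The 150 bases before the RefSeq start site are shown for the members with the highest ratio (Mrpl34) and the lowest ratio in each subunit (Mrpl35, Mrps9), for the most abundant per kb of exon (Mrpl12), for Mrpl45, whose window holds an NRF1 match at each of 2 places, and for the paralog Mrps18a. Each runs 5′ to 3′ along the strand of the gene, and capitals mark a match to the ETS or NRF1 letters. Mrpl34 is at chr8:71464776-71464925 on the plus strand and its capitals are an ETS match. Mrpl35 is at chr6:71823785-71823934 on the minus strand, and its letters hold no such match. The GENCODE gene model of Mrpl35 begins further upstream, so that this stretch lies inside that model. Mrps9 is at chr1:42851083-42851232 on the plus strand, again with no match. Mrpl12 is at chr11:120484487-120484636 on the plus strand with an NRF1 match, Mrpl45 at chr11:97315566-97315715 on the plus strand with 2 NRF1 matches, and Mrps18a at chr17:46110854-46111003 on the plus strand with an ETS match.
Mrpl34: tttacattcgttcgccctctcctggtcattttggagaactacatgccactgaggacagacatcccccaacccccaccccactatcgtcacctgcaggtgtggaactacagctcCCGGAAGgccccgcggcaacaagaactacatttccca
Mrpl35: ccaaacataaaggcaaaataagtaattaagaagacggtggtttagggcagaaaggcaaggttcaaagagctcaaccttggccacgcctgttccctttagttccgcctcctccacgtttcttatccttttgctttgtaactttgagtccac
Mrps9: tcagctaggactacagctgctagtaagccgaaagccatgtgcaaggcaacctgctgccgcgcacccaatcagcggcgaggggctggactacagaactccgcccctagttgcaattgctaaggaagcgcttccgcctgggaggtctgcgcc
Mrpl12: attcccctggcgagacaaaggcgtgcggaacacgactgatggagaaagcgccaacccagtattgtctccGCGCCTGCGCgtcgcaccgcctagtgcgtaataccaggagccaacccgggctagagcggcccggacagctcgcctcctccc
Mrpl45: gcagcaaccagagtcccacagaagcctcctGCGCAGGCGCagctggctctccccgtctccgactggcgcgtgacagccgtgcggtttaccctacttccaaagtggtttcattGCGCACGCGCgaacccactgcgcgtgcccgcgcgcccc
Mrps18a: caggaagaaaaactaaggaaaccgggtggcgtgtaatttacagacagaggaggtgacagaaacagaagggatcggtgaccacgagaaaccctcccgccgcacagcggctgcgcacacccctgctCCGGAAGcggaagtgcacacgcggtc
In the 150 bases shown, Mrpl34 has an ETS match and Mrpl35 none, but these genes were picked by their ratios. Over the 69 members with a window, the median log2 ratio was 0.04 with and 0.06 without an ETS match. Mrpl12 and Mrpl45, with NRF1 matches, had ratios of 0.989 for both. A match in these letters says nothing on whether a factor binds.

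Subunits of the mitochondrial ribosome with other names had ratios within the range of the members. Dap3, a GTP-binding protein of the small subunit, had 86.95 CPM in P2Y4 KO and 76.55 CPM in WT PAT, a ratio of 1.14 (1.05 to 1.23). Chchd1 had 56.30 CPM in P2Y4 KO and 61.85 CPM in WT PAT, a ratio of 0.910 (0.829 to 1.0). Ptcd3, which lies where the mRNA enters, had 48.80 CPM in P2Y4 KO and 52.65 CPM in WT PAT, a ratio of 0.927 (0.838 to 1.03). The intervals of Aurkaip1, with a ratio of 1.01 (0.939 to 1.09), of Gadd45gip1, with 1.04 (0.964 to 1.13), and of Mrpl58, a member once called Ict1 that releases stalled peptides, with 1.11 (0.991 to 1.24), included 1. With Mrpl58, 4 of the 6 had a ratio above 1, against 49.5% of all genes past the filter, and none reached 2 or 0.5.

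The lists of genes that work with this ribosome also had median log2 ratios within 0.1 of 0. Over all genes past the filter, 8.75% had a ratio of at least 2, 4.4% one of at most 0.5 and 49.5% one above 1. Among genes above 5 CPM in both libraries the shares were 2.89%, 1.58% and 46.3%. None of 32 genes for ribosome assembly and rRNA modification reached 2 or 0.5, with a median log2 ratio of 0.03. The farthest by the nearer bound were Mterf4, a partner of an rRNA methyltransferase, with 31.85 CPM in P2Y4 KO and 21 CPM in WT PAT (ratio 1.52, 1.32 to 1.75), the GTPase gene Gtpbp10 (0.666, 0.563 to 0.784) and the tRNA and rRNA methyltransferase gene Trmt61b (0.615, 0.472 to 0.797), the last on 95 reads in P2Y4 KO and 161 in WT PAT. None of 13 translation factors did so either, with a median of 0.07. Tufm, the elongation factor that delivers tRNA, had 101 CPM in P2Y4 KO and 84.50 CPM in WT PAT (1.20, 1.11 to 1.29). The 22 aminoacyl-tRNA synthetases and amidotransferase subunits had a median of -0.05 and 9 ratios above 1, from 0.716 for Vars2 to 1.63 for Gatb. The 26 genes of mitochondrial transcription, replication and RNA processing had a median of -0.05 and 10 ratios above 1. Among them, Elac2, which cuts tRNA ends, was at 0.791 (0.721 to 0.868) and Hsd17b10, a subunit of the mitochondrial RNase P, at 1.26 (1.15 to 1.37). The 25 genes of protein import had a median of -0.08, and Tomm40, the channel of the outer membrane, was at 0.760 (0.709 to 0.814).

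Of 18 regulators of mitochondrial biogenesis, 3 had a ratio of at least 2 and none a ratio of at most 0.5, with a median log2 ratio of 0.00. Over all genes past the filter, the shares past these thresholds were 8.75% and 4.4%. Ppargc1a, the coactivator PGC-1alpha, had 2.50 CPM (37 reads) in P2Y4 KO and 0.50 CPM (7 reads) in WT PAT, a ratio of 5.0 (2.42 to 14.6). It passed the filter through its P2Y4 KO level alone, which favours a high ratio. Ppargc1b had 5.15 CPM in P2Y4 KO and 1.90 CPM in WT PAT (2.71, 1.76 to 4.35), and Ppara, a nuclear receptor of fatty acid oxidation, had 3.85 CPM in P2Y4 KO and 1.40 CPM in WT PAT (2.75, 1.69 to 4.91). The coactivators and Ppara were therefore the farthest from 1 and also among the lowest in reads, while Pprc1, the third member of the coactivator family, had 91.70 CPM in P2Y4 KO and 112.75 CPM in WT PAT.

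The nuclear genes of the respiratory chain and ATP synthase stood apart from the mitochondrial ribosomal protein genes. On library totals, 74 of the 75 genes listed had a ratio above 1, against 49.5% of all genes past the filter. A whole interval above 1 was found for 72, against 25.2% of all genes. None of the 75 reached 2, and their median log2 ratio was 0.39. The list leaves out Cox7a1 and Cox8b, respiratory chain subunits that were counted among the 11 thermogenic adipocyte markers. All 11 of those markers had a ratio of at least 2, against 8.75% of all genes past the filter. The 75 listed genes of the respiratory chain and ATP synthase summed to 13603 CPM in P2Y4 KO and 10327 CPM in WT PAT. That is a ratio of 1.32 (1.31 to 1.33), beside the 1.04 (1.03 to 1.05) of the members. Sdha, a subunit of complex II, had the highest ratio of the list, with 394.75 CPM in P2Y4 KO and 232.00 CPM in WT PAT (1.70, 1.63 to 1.77). The median log2 ratio of the members minus that of this list was thus -0.33.

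The RNAs that the mitochondrial ribosome contains and translates came from the mitochondrial genome. Its rRNAs had 347.60 CPM in P2Y4 KO and 316.45 CPM in WT PAT for mt-Rnr1 (1.10, 1.06 to 1.14), and 499.95 CPM in P2Y4 KO and 474.25 CPM in WT PAT for mt-Rnr2 (1.05, 1.02 to 1.09). The 13 mRNAs summed to 10472 CPM in P2Y4 KO and 10347 CPM in WT PAT, a ratio of 1.01 (1.0 to 1.02), but 8 of the 13 had a ratio below 1 and the median log2 ratio was -0.17. The sum rests on 7 abundant mRNAs, each above 400 CPM, with ratios from 0.891 to 1.11. The other 6, mt-Co2, mt-Co3, mt-Atp6, mt-Atp8, mt-Nd3 and mt-Nd4l, were listed at 5 CPM or less, with ratios from 0.400 to 0.857. Among the abundant ones the ratios were 0.891 (0.875 to 0.907) for mt-Nd1 and 1.11 (1.08 to 1.14) for mt-Nd2. Only mt-Atp8 was at or below 0.5, on 4 reads in P2Y4 KO and 11 in WT PAT (0.400, 0.0880 to 1.28). The library kit selects polyadenylated RNA, and the nuclear genome holds copies of mitochondrial sequence whose reads may be counted in either place, so these levels are less certain. The summed level of the mitochondrial mRNAs and that of the mitochondrial ribosomal protein genes lay within 5% of equality, against the ratio of 1.32 of the nuclear respiratory genes.

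The 77 genes of cytosolic ribosomal proteins lay on the other side. On library totals all had a ratio below 1, against 49.4% of all genes past the filter. Of the 77 genes, 75 had a whole interval below 1, against 23.5% of all genes. These 77 genes had a median log2 ratio of -0.19 and an SD of 0.06. They summed to 39494 CPM in P2Y4 KO and 44970 CPM in WT PAT, a ratio of 0.878 (0.875 to 0.881). The median log2 ratio of the members was higher by 0.24. The sets of ribosomal protein genes also differed in spread, since the log2 ratio had an SD of 0.19 in the mitochondrial and 0.06 in the cytosolic set, which has more reads per gene.

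**Figure D4:**
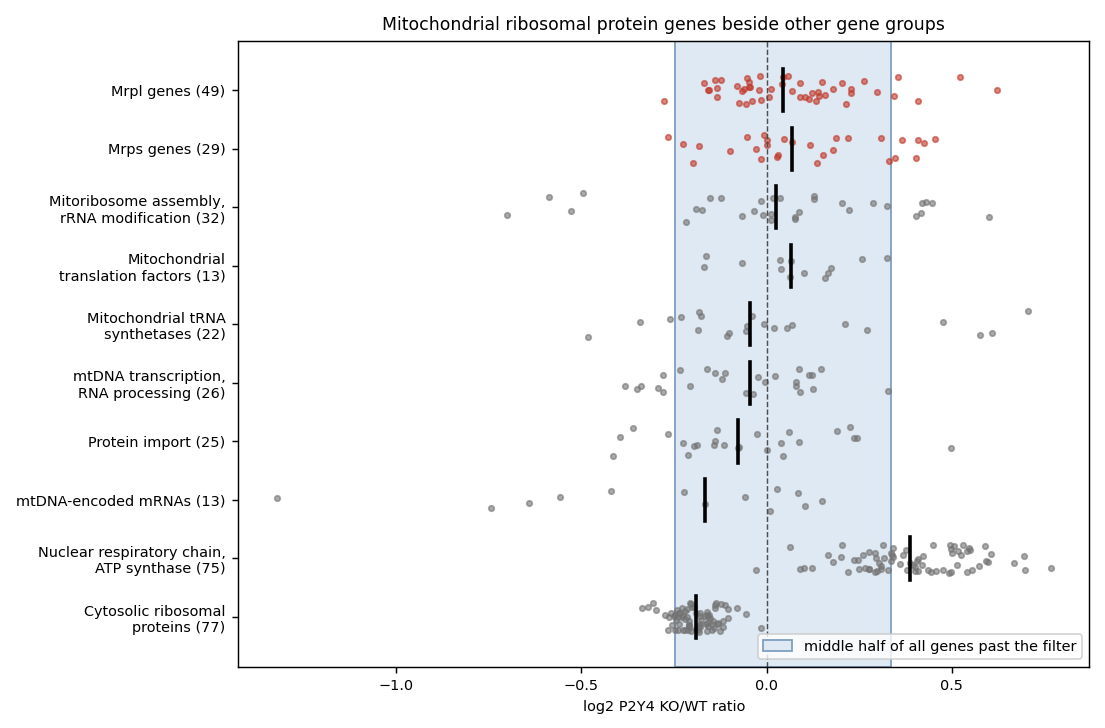
Log2 P2Y4 KO/WT ratio (horizontal axis) of each gene past the filter (points) of the Mrpl and Mrps genes and of 8 related lists, with the number of genes in brackets and a black tick at the median. The band spans the middle 50% of all genes past the filter, and the Mrpl median of 0.04 and Mrps median of 0.07 lie between those of the cytosolic ribosomal proteins at -0.19 and the nuclear respiratory chain and ATP synthase genes at 0.39.

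The libraries also differed in the markers of several cell types, and in bulk tissue fewer cells of a type and less RNA per cell cannot be told apart. Over all genes past the filter, 8.75% had a ratio of at least 2 and 4.4% one of at most 0.5. All 11 markers listed for thermogenic adipocytes had a ratio of at least 2, summing to 460.60 CPM in P2Y4 KO and 22.95 CPM in WT PAT, and Ucp1, the uncoupling protein of brown and beige fat, had 210.15 CPM in P2Y4 KO and 1.25 CPM in WT PAT. The list includes Cpt1b, Cox7a1, Cox8b and Ppargc1a, which heart muscle expresses too, so its count and sum need not come from thermogenic adipocytes alone. All 13 cardiomyocyte markers past the filter had a ratio of at least 2, and the 14 listed summed to 530.05 CPM in P2Y4 KO and 12.05 CPM in WT PAT. The median WT level of these 13 was 0.35 CPM. Most of them thus passed the filter through P2Y4 KO alone, which favours a high ratio, so their count is no separate support. The ventricular Myl2, which did not pass the filter, was at 0.25 CPM in P2Y4 KO and 0.20 CPM in WT PAT. The atrial Myl7 was at 80.45 CPM in P2Y4 KO and 1.70 CPM in WT PAT. The 8 general adipocyte markers, all above 1, summed to 5371 CPM in P2Y4 KO and 3143 CPM in WT PAT, and the 11 skeletal muscle markers to 58.60 CPM in P2Y4 KO and 11.20 CPM in WT PAT. Of 8 mesothelial markers 7 had a ratio of at most 0.5, with sums of 643.20 CPM in P2Y4 KO and 2211 CPM in WT PAT. The 8 neutrophil markers summed to 1130 CPM in P2Y4 KO and 1450 CPM in WT PAT. All 8 had a ratio below 1 and 4 a ratio of at most 0.5, with a median log2 ratio of -1.09. The 9 macrophage markers, all above 1, summed to 6072 CPM in P2Y4 KO and 4815 CPM in WT PAT. Both thermogenic adipocytes and cardiomyocytes are rich in mitochondria, and the part of these cell types in the levels of the mitochondrial ribosomal protein and respiratory genes was not tested.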

How the data were processed

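One library of PAT RNA pooled from 3 P2Y4 KO mice and 1 pooled from 3 WT mice were sequenced (TruSeq Stranded mRNA). According to the methods and the processing notes, reads were trimmed with Trimmomatic, aligned to GRCm38.p4 (mm10) with STAR and assigned to genes with HTSeq. Versions, the strand setting and the handling of reads that fit several genes were not given in the sources used here. By its values, the signal that the authors deposited per gene is the read number brought to a library sum of 20000000 and rounded up. One read is worth 1.34 in P2Y4 KO and 1.29 in WT, and 99.8% of P2Y4 KO and 99.9% of WT values are whole reads at this step. The lowest deposited WT value is 2, and genes with reads in P2Y4 KO alone were not analysed here.

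CPM was the deposited signal divided by 20. The planned comparison of CPM values was kept, with no model of counts. A ratio was P2Y4 KO over WT CPM, with an exact (Clopper-Pearson) 95% interval from the reads recovered. Thresholds were 0.5 CPM and ratios of 2 and 0.5, from the study's methods. Applying the CPM limit to at least 1 library was chosen here. A deposited ratio column and a table of genes called regulated hold the authors' own comparison and were not used. Computations used Python 3.11.15, numpy 2.4.6, pandas 2.3.3 and scipy 1.17.1, and the interval script was tested on simulated data.

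Members and lists were chosen with earlier results of these data known. Genes named with full values were, per subunit, the 5 with the highest lower bound, the 5 with the lowest upper bound, the 3 with the most CPM per kb and the 1 with the fewest reads, any past a threshold, the Mrps18 paralogs, Mrps30, Mrps36 and Mrpl12, the subunits with other names and, per related list, genes past a threshold and up to 3 with the bound farthest from 1. Role groups, head-to-head pairs, the factor genes and single marker genes were picked after their values were seen. Alternatives changed the filter, scaling, pseudocount, reads and membership.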

Additional observations from a re-analysis of the deposited data

How the results depend on the processing

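With 1 library per genotype no replicate could be left out. No paired analysis was possible because each genotype has 1 library. Of 156 alternative values, 131 kept their direction and size, 20 moved and 5 turned direction. The 131 include values that could not change. All 78 members lie above 5 CPM and have at least 207 reads in both libraries. The other CPM filters and a minimum of 100 reads therefore left the members as they were, and these settings are no check on the results. No member reached a ratio of 2 or 0.5 under any alternative run. Median-of-ratios size factors gave median log2 ratios of 0.018 for all members, 0.0082 for Mrpl and 0.034 for Mrps genes, and 0.023 for the summed reads. Scaled to a median ratio of 1 over the cytosolic ribosomal protein genes, a shift of 0.19 on the log2 scale, 74 members had a ratio above 1, 59 a whole interval above and 0 a whole interval below it. The medians were then 0.24 for all members, 0.23 for Mrpl and 0.26 for Mrps genes, and the summed reads gave 0.25. With the median ratio of the nuclear respiratory chain and ATP synthase genes set to 1, a shift of -0.39, the counts were 7 above 1, 1 whole interval above and 61 whole intervals below. The medians turned to -0.33 for all members, -0.34 for Mrpl and -0.32 for Mrps genes, and the summed reads to -0.33. The direction of the members thus depends on the scaling by construction, while the differences of their median from those lists lay at 0.24 and between -0.34 and -0.32 in the alternatives run. Over all genes, 66.6% of those past a threshold were higher in P2Y4 KO with library totals, 79.6% with the cytosolic and 34.1% with the respiratory scaling. With subunits of other names added, Mrps36 left out and Mrps30 and Mrps18a in the large subunit, the Mrps median was 0.038 and the large minus small difference turned to 0.013, against -0.026. Restricted to the 45 members whose exons overlap no other gene, a setting chosen after seeing the data, the medians were 0.030 for all members and 0.0060 for Mrpl genes, with 26 members above 1, 15 whole intervals above and 6 below, as fewer genes were counted.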
